A study of Mus musculus with 4 samples.

Results

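Reads with shifted seeds are the small RNAs that were given the name of a single mouse miRNA but whose 6mer seed, the bases at positions 2 to 7 from the 5′ end, was not the seed that most reads of that miRNA carried. For each miRNA name the main seed was the one with the largest sum over the 4 libraries, and every sequence of that name with another seed was a member. Of 85704 sequences in the table, 19676 were members, against 20171 with a main seed. They came from 657 of 1020 miRNA names and formed 5375 combinations of a name and a seed, here called pairs, and the other 363 names had no shifted read. The members were thus chosen by the measured CPM, normalized read counts scaled to a common library total, summed over both ages. The share of shifted reads is therefore a description, and the seed viability and the comparison of the ages are the measures that the choice did not use.

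The libraries came from C57BL/6J (BL6) mice, all male and untreated, at 2 months or 18 months of age, with 2 libraries per age. Cortex and hippocampus of each mouse brain were combined, and small RNAs bound to Argonaute (Ago) proteins were recovered with a GW182 peptide that binds all Ago proteins, size-selected and sequenced. Nothing in the labels gives the number of mice per library, so the p-values measure the spread between these libraries. The tissue is a mixture of cells, and fewer cells of a type cannot be told apart from less RNA per cell. The 7 miRNAs listed as neuronal made up 215698 to 249117 CPM per library, against 6183 to 11603 for 3 oligodendrocyte miRNAs and 5422 to 12243 for 2 endothelial miRNAs. The values behind the CPM scale corresponded to between 9067007 and 11388999 reads per library.

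A miRNA is cut from its hairpin precursor by Drosha and Dicer, and the resulting strand is held by an Ago protein, which pairs with messenger RNAs mainly through the seed. A cut displaced by a nucleotide gives a 5′ isomiR, a read of the same miRNA that begins upstream or downstream and therefore presents another seed and other targets. Editing of adenosine to inosine, which is read as G, can change the seed without moving the 5′ end. Seed viability is the survival of cells, in percent of control, after transfection with an siRNA of that seed, averaged over mouse cell lines. Low values mark seeds that are toxic through loss of survival genes.

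The sequences below are the most abundant deposited reads of pairs named in the results, shown so that the displacement can be read directly. The most abundant pair, the -1 read of miR-124-3p, is not shown, since the reference used held no entry for that miRNA. Capitals mark the 6mer seed, and a shift of -1 means a read that began 1 nt upstream of the most abundant read with the main seed, a shift of +1 a read that began 1 nt downstream.
miR-9-3p main: uAAAGCUagauaaccgaaagu
miR-9-3p shift -1: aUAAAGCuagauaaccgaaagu
miR-101a-3p main: uACAGUAcugugauaacuga
miR-101a-3p shift -1: gUACAGUacugugauaacuga
miR-29a-3p main: uAGCACCaucugaaaucgguu
miR-29a-3p shift -1: cUAGCACcaucugaaaucgguu
miR-126a-3p main: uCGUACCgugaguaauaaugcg
miR-126a-3p shift +1: cGUACCGugaguaauaaugcg
miR-132-3p main: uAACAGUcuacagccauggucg
miR-132-3p shift +1: aACAGUCuacagccauggucg
miR-136-3p main: aUCAUCGucucaaaugagucu
miR-136-3p shift -1: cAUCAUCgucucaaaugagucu
miR-136-3p shift +1: uCAUCGUcucaaaugagucuu
miR-330-3p main: cAAAGCAcagggccugcagaga
miR-330-3p shift -1: gCAAAGCacagggccugcagaga
miR-411-5p main: aUAGUAGaccguauagcguacg
miR-411-5p shift +1: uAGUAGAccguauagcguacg

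In RefSeq (GRCm38.p6) the mature miR-101a-3p lies at chr4:101346957-101346977 on the minus strand, in an exon of the lincRNA E130102H24Rik, and miR-29a-3p at chr6:31062673-31062694 on the minus strand, between genes on its strand. miR-126a-3p lies at chr2:26591402-26591423 on the plus strand, in an exon of Egfl7. miR-132-3p lies at chr11:75173723-75173744 on the plus strand, in an intron of 1700016P03Rik, and miR-330-3p at chr7:19181525-19181547 on the plus strand, in an exon of Eml2. miR-136-3p at chr12:109595366-109595387 and miR-411-5p at chr12:109710190-109710210 lie on the plus strand between genes. miR-9-3p has 3 copies, at chr3:88215652-88215673 in an intron of Gm3764, at chr7:79505318-79505339 in an intron of Mir9-3hg and at chr13:83738858-83738879 in an exon of C130071C03Rik, and reads cannot be assigned to one of them.

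Of the named miRNA reads, 7.68% (95% Wilson interval 7.67 to 7.70) were shifted in the first 2-month library and 7.14% (7.12 to 7.15) in the second. At 18 months the share was 7.22% (7.20 to 7.23) in the first library and 6.83% (6.81 to 6.84) in the second. The intervals cover counting error only. The ages overlapped, with means of 7.41% ± 0.384 (SD, n = 2) and 7.02% ± 0.275 (SD, n = 2), and the difference of -0.389 percentage points gave p = 0.667 in a two-sided exact permutation test. With 2 libraries against 2 this test cannot go below 0.333.

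Moves of the 5′ end by 1 nt accounted for most shifted reads. Reads that began 1 nt upstream were 52.7% of the shifted CPM, and reads that began 1 nt downstream were 34.1%. Shifts of +2 and -2 contributed 3.78% and 3.48%, and a single substitution in the seed 2.69%. Where a hairpin sequence could be matched, the base added upstream was the base of the hairpin in 94.7% of the CPM of the -1 reads and in 61.3% of the -2 reads. No hairpin was matched for 12905 of 36689 CPM of the -1 reads and 417 of 2421 CPM of the -2 reads. The reference used held no entry for miR-124-3p, the miRNA of the most abundant -1 read, so the 94.7% does not cover it. The 3′ end was that of the most abundant main read in 50.6% of the -1 reads and 50.4% of the +1 reads.

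Shifted reads were more common on the 3p arm, whose 5′ end is set by Dicer, than on the 5p arm, whose 5′ end is set by Drosha. They made up 11.4%, 10.1%, 10.2% and 9.56% of 3p reads in the 2 libraries at 2 months and the 2 at 18 months, against 3.56%, 3.32%, 3.42% and 3.31% of 5p reads. The arms differed in the same direction in 4 of 4 libraries, by 6.89 percentage points ± 0.647 (SD, n = 4), a description since the share rests on the values that chose the members. Without miR-124-3p and miR-9-3p the 3p share was 7.30% to 8.25%. Among miRNAs with at least 100 CPM the median shifted share was 4.71% for 137 3p miRNAs and 2.34% for 128 5p miRNAs.

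The first base of the read, which sits in a pocket of Ago that prefers U, differed between the classes. Of reads with the main seed 74.7% to 77.6% began with U, against 24.7% to 31.0% of the shifted reads. In the -1 reads this U stood instead at the first base of the seed, in 86.9% to 89.7% of reads, against 14.6% to 17.2% of main reads. This follows from the move, since a -1 read carries the first base of its main read at that place.

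A few miRNAs supplied most of the shifted reads. The most abundant pair was the -1 read of miR-124-3p, a neuronal miRNA, with the seed UAAGGC which stood at 13913 and 13616 CPM in the younger mice and at 13279 and 8847 CPM in the older mice. The second 18-month library was the low one. The ages did not overlap in CPM, but the log2 difference of -0.34 ± 0.26 (SE) had an unadjusted p of 0.235 in limma. It was -0.25 with the libraries rescaled by median of ratios. The -1 read of miR-9-3p, a miRNA of neural progenitors and neurons, had 10133, 7632, 8809 and 7848 CPM in the same order, with overlapping ages, and was 47.7% of that miRNA.

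The -1 read of miR-101a-3p reached 3190 and 4012 CPM in the younger mice, 4564 and 5223 CPM in the older mice, and was 40.9% of the miRNA. Its log2 difference of 0.45 ± 0.23 (SE) had an adjusted p of 0.455 in limma. The +1 read of miR-126a-3p, an endothelial miRNA, had 4245 and 4505 CPM at 2 months against 1148 and 3239 CPM at 18 months, and was 48.4% of the miRNA. Its values did not overlap between the ages, and the first 18-month library was far below the other 3.

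The -1 read of miR-29a-3p ran from 2648 to 3274 CPM, the +1 read of miR-9-5p from 1465 to 2422 CPM and the +1 read of miR-132-3p, whose gene responds to neuronal activity, from 1106 to 1670 CPM. The +1 read of the neuronal miR-128-3p had 819 and 1470 CPM at 2 months against 2366 and 1643 CPM at 18 months, without overlap. The last of the 12 most abundant pairs were the +1 read of miR-124-3p (794 to 1277 CPM), the -1 read of miR-101b-3p (682 to 954 CPM), the -1 read of miR-136-3p (421 to 1270 CPM) and the -1 read of miR-29b-3p (668 to 1036 CPM).

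Members of a family with the same main seed differed in how often they were shifted. The -1 read with the seed UAGCAC led in miR-29a-3p and miR-29b-3p, whose shifted shares were 10.6% and 5.78%, whereas miR-29c-3p had 2.66% and its leading shifted seed was GCACCA, a +1 read. miR-101a-3p and miR-101b-3p were shifted in 41.6% and 30.1% of reads. The let-7 family stayed between 0.881% for miR-98-5p and 3.22% for let-7d-5p, and the miR-30 family between 1.58% and 3.04%.

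Of 269 miRNAs with at least 100 CPM, the median shifted share was 3.21%. In 69 of them it was at least 10%, in 35 at least 25%, and in 12 under 1%. The highest shares were 72.2% for miR-376a-5p, 56.3% for miR-29c-5p, 53.8% for miR-142a-3p, 51.0% for miR-136-3p, 50.7% for miR-425-3p and 50.6% for miR-345-5p. The leading shifted pairs were a +1 read at 38.1% of miR-29c-5p, a -1 read at 43.9% of miR-142a-3p, a -1 read at 33.0% of miR-136-3p, a +1 read at 45.0% of miR-425-3p and a -1 read at 48.4% of miR-345-5p. In miR-376a-5p the share was 72.6% and 72.4% at 2 months and 70.1% and 72.8% at 18 months. It was spread over an A-to-G read at 25.9% of the miRNA and a +1 read at 24.1%.

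The rule cut closely where the leading seeds were nearly equal. In miR-142a-3p, a miRNA of blood cells, the second seed reached 0.949 of the main seed, with 137 against 145 CPM. Of the 269 miRNAs, 8 had another leading seed in at least 1 library, as did 95 of all 1020 names. The 14 miRNAs listed as carriers of 5′ isomiRs all had at least 10% shifted reads, with a median of 34.9%, against 69 of the 269 miRNAs. The list was made with earlier results of these data known, so this count is a description. Of the 14, miR-10a-5p and miR-10b-5p had only 8.09 and 5.90 CPM in all.

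The main seed was not always the annotated one. Of 869 names matched to the RefSeq table, 740 had the annotated seed as the main seed and 129 did not. In 71 of these the annotated seed was itself a member, with 12289 CPM in all. The -1 read of miR-9-3p was such a case, as were the +1 read of miR-411-5p, a miRNA of the imprinted cluster on chromosome 12, at 633 CPM, and the -1 read of miR-330-3p at 252 CPM. So were the -1 reads of miR-101b-3p (839 CPM), miR-142a-3p and miR-582-3p and the +1 read of miR-425-3p. In these pairs the shifted read carried the annotated seed of the miRNA.

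Seed viability of the shifted reads was lower than that of the main reads in each library when reads were weighted by abundance. It was 51.2% and 51.5% in the 2-month libraries and 51.6% and 52.6% in the 18-month libraries, against 58.3%, 58.5%, 58.6% and 58.9% for the main reads. The difference was -6.84 percentage points ± 0.384 (SD, n = 4), with p = 0.125 in a two-sided exact sign-flip test, the smallest that 4 libraries allow. Set against the main seed of the same miRNA, it was -8.30 ± 0.508 (SD, n = 4).

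This difference rested on few miRNAs. Without miR-124-3p, whose -1 seed has a viability of 31.2% against 57.3% for its main seed, it was -2.09. Without the 10 miRNAs with the most shifted reads it turned to 2.63, and with each miRNA weighted equally it was -0.722. Of 239 miRNAs with at least 10 CPM of shifted reads, 124 had a lower and 115 a higher viability in the shifted reads, with a median difference of -1.16 and quartiles of -16.7 and 10.1.

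The same measure differed between the directions of the move. The -1 reads had a viability of 44.1%, and they lay below the main seeds of the same miRNAs by 15.8 and 16.4 percentage points at 2 months and by 16.7 and 16.8 at 18 months. The +1 reads had 60.9% and lay above by 0.655, 1.92, 0.282 and 1.87. Without the -1 reads, the difference between all other shifted reads and the main reads was 1.58. Counted by pair at 5 CPM or more, 74 of 135 -1 pairs were lower and 60 higher, and 99 of 204 +1 pairs were lower and 105 higher.

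Single pairs lay both below and above their main seed. The -1 read of miR-330-3p carried a seed of 18.3% against 70.4% for the main seed, and was present at 246, 241, 259 and 260 CPM. In miR-136-3p both moves gave lower values, 37.3% for the -1 read and 30.2% for the +1 read against 83.4%. The +1 read of miR-132-3p had 29.1% against 63.1%, and the -1 read of miR-101a-3p had 61.1% against 86.2%. The +1 read of miR-126a-3p went the other way, with 60.9% against 38.4%, as did that of miR-128-3p with 70.2% against 49.5%.

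The viability of the shifted reads was higher in both 18-month libraries than in either 2-month library. The same held for the main reads, with 58.6% and 58.9% against 58.3% and 58.5%. A test of 2 against 2 libraries cannot show such a difference at 0.05. The means of the shifted reads were 51.3% ± 0.258 (SD, n = 2) for the younger mice, against 52.1% ± 0.732 (SD, n = 2) for the older mice. A two-sided exact permutation test gave p = 0.333, the smallest it allows. The difference of 0.745 turned to -0.0624 without miR-124-3p. Set against the main seed of the same miRNA, the order of the ages was the opposite, with -7.99 ± 0.0363 (SD, n = 2) for the younger and -8.62 ± 0.612 (SD, n = 2) for the older mice, also without overlap and with the same exact p.

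Some shifted seeds were the main seeds of other abundant miRNAs. Of 633 pairs with at least 5 CPM, 61 carried a main seed of another miRNA with at least 100 CPM of it, or 9.64%, where such seeds are 4.74% of all possible 6mers. Related miRNAs give the same seed when moved alike, as the let-7 members did with AGGUAG, so the 61 pairs are not independent. The share of all 6mers is no background for moved seeds, and an excess was not tested. The UACAGU of the -1 reads of miR-101a-3p and miR-101b-3p is the main seed of miR-582-5p, the +1 reads of let-7c-5p (350 CPM) carried the AGGUAG of miR-1839-5p, and the +1 read of miR-16-5p (134 CPM) the GCAGCA of miR-103-3p and miR-107-3p. Seeds that are the main seed of no miRNA held 59.1% of the shifted CPM.

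Substitutions in the seed were led by A-to-G, at 766 CPM or 40.8% of the substituted reads, against 323 CPM for C-to-U and 243 CPM for U-to-C. Of these named A-to-G reads, 697 CPM came from miRNAs outside the 12 listed as edited. Edited reads without a miRNA name, such as 3765 CPM of miR-376b-3p A6G, are not in this count. The split therefore does not show where most editing lies. Relative to the main seed, A4G of miR-376a-5p was the largest substitution at 92.9%, followed by A3G of miR-467d-5p (21.2%), miR-467a-5p (13.7%), miR-99b-3p (12.7%) and miR-540-5p (10.95%), which were named after their values were seen, and A2G of miR-497a-5p had 4.82%. The reads below show miR-376a-5p and, as the most abundant substitution among the listed edited miRNAs, miR-497a-5p, with positions counted from 1 at the 5′ end of the read.
miR-376a-5p main: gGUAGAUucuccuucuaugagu
miR-376a-5p A4G: gGUGGAUucuccuucuaugagu
miR-497a-5p main: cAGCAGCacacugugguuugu
miR-497a-5p A2G: cGGCAGCacacugugguuugu

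In RefSeq (GRCm38.p6) miR-376a-5p lies at chr12:109723786-109723807 and miR-497a-5p at chr11:70234730-70234751, both on the plus strand and between genes.

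The A2G read of miR-497a-5p, a miRNA of the miR-15/16 seed family, had 37.1 and 25.6 CPM at 2 months against 48.6 and 62.3 CPM at 18 months, without overlap, and its seed viability was 9.7% against 37.8%. In miR-376a-5p the A4G read had 35.1, 63.7, 29.98 and 35.6 CPM, with overlapping ages, and 50.2% against 38.8%. Of the listed edited miRNAs, miR-99a-5p A2G had 17.1 CPM and miR-151-3p A3G had 7.91 CPM, the latter with a viability of 24.0% against 93.9%. The most strongly edited miRNAs are missed by the rule, since their edited reads carry no miRNA name in the table.

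The comparison of 18 with 2 months was made by limma on log2(CPM + 1) over all 1793 pairs with at least 5 CPM, other RNAs included, of which 12.7% had an unadjusted p under 0.05, 5.47% as higher and 7.25% as lower at 18 months. Of the 633 shifted pairs, 68 did, with 27 higher and 41 lower. This is 10.7%, near the share over all pairs. Of all pairs 0.112% passed a Benjamini-Hochberg adjusted p of 0.05, and of the shifted pairs 0 did in limma (smallest 0.140) and in edgeR, and 3 did in DESeq2. These 3, named after their values were seen, were miR-376a-3p AUCGUA (adjusted p = 0.0463 in DESeq2), miR-496a-3p GAGUAU (0.025) and miR-700-3p CACGCG (0.039). Without the first 2-month library 5 shifted pairs passed the adjustment in limma. A pair at an unadjusted p under 0.05 is called below. The median log2 difference was -0.07 over shifted pairs and -0.10 over all pairs. Rescaling by median of ratios brought the median of all pairs to -0.01. Of the 69 shifted pairs then called, 42 were higher, as were 40 of the 66 called in edgeR. The directions over all pairs called under these settings are not given here.

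The called shifted pairs mostly went with the main reads of their miRNA. Of the 68 pairs, 66 had the same sign as the main seed pair and 35 shared the call, where 16.4% of all main seed pairs tested were called. The agreement in sign was not counted over the shifted pairs that were not called. Among the called pairs, the largest differences downward in CPM were those of miR-126a-3p (log2 -1.18 ± 0.46 SE, adjusted p = 0.378 in limma), the +1 read of miR-411-5p (-0.65) and the +1 read of miR-487b-3p (-0.68), followed by the -1 and -2 reads of miR-127-3p (-0.61 and -0.58) and the +1 read of miR-495-3p (-0.64). Under the rescaling miR-126a-3p and miR-495-3p were no longer called. The last 5 belong to miRNAs of the imprinted cluster on chromosome 12.

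In miR-411-5p the +1 read had 757 and 788 CPM in the younger mice against 508 and 479 CPM in the older mice. For the +1 read of miR-487b-3p the values were 489 and 525 CPM against 342 and 293 CPM, while its main seed pair differed by -1.16 on the log2 scale. In both, all younger libraries lay above all older ones, which was a condition of their choice. The -1 read of miR-127-3p, which lies antisense to the imprinted Rtl1 gene, had 399 and 407 CPM against 290 and 239 CPM, and its -2 read 256 and 241 CPM against 174 and 158 CPM. In miR-495-3p the +1 read had 280 and 403 CPM against 192 and 242 CPM.

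The difference of miR-126a-3p rested on the first 18-month library, without which it was -0.43 and no longer called. The 2 endothelial miRNAs together summed to 12243 and 11472 CPM in the younger mice, against 5422 and 8990 CPM in the older mice, and neither was at 0. This sum includes miR-126a-3p itself, and the other marker, miR-126a-5p, had 3000 and 2618 CPM against 2865 and 2501 CPM, with overlapping ages. The shifted share of miR-126a-3p was 47.9% and 52.6% at 2 months and 48.7% and 52.0% at 18 months, with overlapping ages.

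Among the called pairs, the largest differences upward in CPM were those of the +1 reads of miR-128-3p (log2 0.84 ± 0.34 SE, adjusted p = 0.378 in limma), miR-200b-3p (0.68), miR-429-3p (0.76), miR-29c-5p (0.76), miR-183-5p (0.89) and miR-200b-5p (0.99). For miR-128-3p the difference was 0.42 without the first 2-month library and 0.58 without the first 18-month library, and was called in neither. In miR-183-5p, a miRNA of sensory cells, the +1 read had 71.0 and 83.6 CPM in the younger mice against 177 and 116 CPM in the older mice, and that of miR-29c-5p had 163 and 88.0 CPM against 211 and 197 CPM. Neither overlapped between the ages, which was a condition of their choice. The miR-200 miRNAs are epithelial, and the +1 read of miR-200b-3p had 198 and 283 CPM at 2 months against 429 and 335 CPM at 18 months. In miR-429-3p the +1 read had 102 and 140 CPM against 222 and 185 CPM, and that of miR-200b-5p 32.5 and 50.05 CPM against 86.0 and 76.9 CPM. The 5 miRNAs listed for choroid plexus and ependyma, of which miR-200b-3p and miR-429-3p are part, summed to 26541 and 45270 CPM at 2 months against 52999 and 58041 CPM at 18 months, and none had a mean of 0. Most of this sum is miR-200a-3p, miR-200b-3p and miR-429-3p, whereas miR-204-5p had 2100 and 2623 CPM against 2256 and 2786 CPM, with overlapping ages. The part of these cells in the results was not tested.

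The ratio of shifted to main reads was compared within each miRNA, so that the level of the miRNA drops out. Of 238 miRNAs tested by limma, 9 had an unadjusted p under 0.05, or 3.78%, and none passed the adjustment in this fit (smallest adjusted p 0.570). Without the first 2-month library 21 miRNAs had an unadjusted p under 0.05 and 3 an adjusted one, and without the second 18 and 1. The smallest p-value was that of miR-192-5p, with a shifted share of 10.7% and 7.54% at 2 months against 20.5% and 18.1% at 18 months (log2 ratio 1.16 ± 0.20 SE). The shifted share of miR-582-3p went from 38.8% and 36.4% to 48.0% and 50.8%, that of miR-153-5p from 14.4% and 16.7% to 10.6% and 8.51%, and that of miR-338-3p, an oligodendrocyte miRNA, from 2.19% and 2.65% to 4.39% and 3.64%. None of the 4 overlapped between the ages, but they were chosen for the smallest p-values, so this is no separate support.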

How the data were processed

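Per the labels, Ago-bound small RNAs were sequenced from 4 libraries, and the authors deposited CPM per sequence together with a seed viability score (mean of mouse cell lines, percent of control), a miRNA name and a match to other RNAs. Trim Galore is named in the submitters' processing notes. Per the study's methods, rare reads were removed, reads were annotated by BLAST against small RNA lists, and the SPOROS pipeline added seed, viability and names. The mismatches allowed for a name and the build are not given in the sources used here. In each library 100% of the CPM values were whole reads within 0.0011 CPM. The rows with joint names (198 sequences) were left out, and 0 per-sample columns were unused.

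Reads were aligned to the most abundant main read of their miRNA over 15 nt (at least 11) at offsets of -4 to 6. Pairs of at least 5 CPM were tested by limma 3.58.1 (trend) on log2(CPM + 1), and ratios, for miRNAs with at least 10 CPM of shifted reads, by limma on log2((shifted + 1)/(main + 1)), in R 4.3.3, with Benjamini-Hochberg adjustment. A fold on this scale understates the change of low pairs. edgeR 4.0.16 (quasi-likelihood) and DESeq2 1.42.0 on the recovered reads were alternatives. They called 66 and 60 of 633 shifted pairs at an unadjusted p under 0.05, and their share over all pairs is not given here. The fits were run on simulated data with known changes, all larger than the age differences printed here. That run does not show how well smaller changes are found. Shares and viabilities were compared by exact tests. Named pairs were the 12 most abundant, the 6 miRNAs with the highest share at 100 CPM or more, the 6 largest differences in CPM each way among pairs with p under 0.05 and no overlap, the 4 smallest p-values of the ratio test, and A-to-G reads of listed miRNAs. Other pairs are given as examples chosen after their values were seen. Members and lists were chosen with earlier results of these data known. Sequences are deposited reads written as RNA; places are from RefSeq GRCm38.p6 and GENCODE vM21.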

Additional observations from a re-analysis of the deposited data

Results flagged for a closer look

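Edited seeds were found among sequences that carry no miRNA name in the table and therefore entered no comparison above. Among reads that were given to a miRNA precursor only, A-to-G versions of main seeds reached 3765 CPM for miR-376b-3p A6G, 555 CPM for miR-411-5p A6G, 275 CPM for miR-376c-3p A6G, 161 CPM for miR-379-5p A5G and 46.8 CPM for miR-381-3p A7G. Lower values were 10.6 CPM for miR-151-3p A3G, 6.20 CPM for miR-378a-3p A6G and 5.85 CPM for miR-381-3p A4G. All were above the limit that a count of 0 allows, 0.263 to 0.331 CPM per library for 3 reads, and there were no control samples. The edited reads of miR-376b-3p were 75.7% and 76.2% of all edited plus main reads in the younger mice, against 76.9% and 79.5% in the older mice, with a seed viability of 44.2% against 66.8%. Those of miR-376c-3p were 41.4% and 40.8% in the younger mice, against 58.3% and 62.1% in the older mice, without overlap, and the difference between the ages was not tested. The reads of miR-376b-3p differ in 1 base of the seed, as follows.
miR-376b-3p main: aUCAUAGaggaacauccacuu
miR-376b-3p A6G: aUCAUGGaggaacauccacuu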

How the results depend on the processing

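The shifted share was lower at 18 months under every alternative tried, including the annotated seed as the main seed, only moved 5′ ends and each library left out (-0.661 to -0.117 percentage points). The viability difference was -6.84 and ranged from -7.03 to -6.75 without single libraries. It was -5.20 with annotated main seeds, -1.51 without seeds that are the main seed of another miRNA, and, in alternatives chosen after seeing the data, 1.58 without -1 reads and 2.63 without the 10 leading miRNAs. The difference of viability between ages ranged from 0.227 to 1.26 without single libraries and was -0.0624 without miR-124-3p. Shifted pairs with an unadjusted p under 0.05 numbered 131 of 1566 at a minimum of 1 CPM and 244 of 5375 with no filter. At 50 CPM there were 22, and 323 for single sequences. The share over all pairs under these settings is not given here, so the counts are no result about the shifted pairs. At an adjusted p under 0.05 there were 7 with no filter, 3 in DESeq2 and 0 to 5 without single libraries, 5 of them without the first 2-month library (miR-140-3p CCACAG, miR-192-5p GACCUA, miR-411-5p GUAGAC, miR-674-5p GCACUG and miR-873a-5p CAGGAA). The ratio test called 23 miRNAs at 1 CPM and 6 to 21 without single libraries, 21 without the first and 18 without the second 2-month library, with 0 to 3 at an adjusted p under 0.05.

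Same-numbered libraries came from different mice, and their deviations correlated at 0.0806 over 633 shifted pairs, so the numbers were not taken as pairs. With a replicate block, 71 shifted pairs and 16 ratios had p under 0.05, and 0 and 2 passed the adjustment, the latter miR-192-5p (adjusted p = 0.000705 in limma) and miR-543-5p (0.0139). The mean paired differences were -0.389 for the share and 0.745 for viability. The log2 differences of 6 named pairs that were not called changed sign. That of miR-9-3p UAAAGC ranged from -0.29 to 0.12 without single libraries and was 0.012 rescaled, 0.0061 in edgeR, 0.0042 in DESeq2 and 0.017 in edgeR with block. That of miR-345-5p GCUGAC ranged from -0.23 to 0.11, and was 0.031 rescaled, 0.033 in edgeR, 0.031 in DESeq2 and 0.036 in edgeR with block. The ranges without single libraries were -0.34 to 0.39 for miR-9-5p UUUGGU, -0.58 to 0.10 for miR-124-3p AGGCAC, -0.83 to 0.35 for miR-142a-3p GUAGUG and -0.83 to 0.20 for miR-425-3p UCGGGA. The cause was not tested.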
